A study of Drosophila melanogaster with 3 samples.

Results

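Transfer RNA (tRNA) genes were examined in a chromatin immunoprecipitation and sequencing (ChIP-seq) experiment on the Drosophila melanogaster protein rgr (regular). The genes were all those of biotype tRNA on chromosome arms 2L, 2R, 3L, 3R, 4 and X in the Ensembl annotation (release 115, BDGP6.54, dm6 coordinates). There were 290 of them among 23973 annotated genes on these arms, 13945 of which are protein-coding. Arm 2R held 98 tRNA genes, 3R held 79, 3L held 48, 2L held 41 and X held 24, and chromosome 4 held none. The chromatin came from whole wandering larvae of the third instar, of the transgenic strain rgr-GFP, males and females together, in which GFP is fused to the carboxyl end of rgr. It was sheared by sonication and precipitated with an antibody against GFP. The 3 biological replicates form 1 group and share this line, and the labels do not give the larvae's age in hours or days or the promoter that drives the fusion. Whole animals were used, so a signal carried by a few cells cannot be told apart from a weak signal in many.

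The deposited results are lists of peaks, each with a summit position and a signal. The thresholded list, called optimal by the authors, held 8551 peaks. The relaxed list called on the 3 replicates together held 30000, and so did the relaxed list of each replicate. Relaxed lists are typed as peaks and background, so a relaxed entry alone may be background. All 8551 optimal summits were in the pooled relaxed list. The lists hold no read counts, so depth is unknown. The signal of a peak is a value of the authors' caller. It served only to describe or rank summits inside one list, rank 1 being the strongest.

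tRNAs carry amino acids to the ribosome and read codons through a complementary anticodon. Genes for tRNAs that carry the same amino acid are named by it and by the anticodon, so tRNA:Tyr-GTA-1-8 is a tyrosine tRNA gene with anticodon GTA. They are transcribed by RNA polymerase III (Pol III) from a promoter that lies inside the gene. The complex TFIIIC binds an A box and a B box within the transcribed sequence and places TFIIIB just upstream of the start, and TFIIIB recruits Pol III. Transcription ends in a short run of T residues past the gene. In the fly, as in other animals, most tRNA genes exist in several near-identical copies, many of them in clusters and many within introns of protein-coding genes.

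Some of the genes nearest to the strongest optimal summits are shown first. The internal promoter element they share lies inside the gene, whereas those optimal summits lay outside it. Among these genes, tRNA:Cys-GCA-1-3 also held weaker summits inside it, ranked 16093 in the pooled list and 8520 and 17749 in replicates 2 and 3. Sequences were read from the RefSeq copy of the dm6 assembly and are written 5′ to 3′ on the strand of the tRNA gene. Capitals mark the match to the core of the B box, searched as GTTCNANNC on the gene's strand. The genes are tRNA:Tyr-GTA-1-8 at chr3R:8669081-8669174 (minus strand), tRNA:Gln-TTG-2-1 at chrX:3427452-3427523 (minus), tRNA:Asp-GTC-1-5 at chr2L:8541761-8541832 (plus), tRNA:Val-CAC-2-5 at chr3R:19672277-19672349 (minus), tRNA:Lys-TTT-1-1 at chr2L:8290727-8290799 (plus), tRNA:Pro-AGG-1-3 at chr2L:14599396-14599467 (minus), tRNA:Leu-TAA-2-1 at chr3R:24112964-24113047 (plus) and tRNA:Cys-GCA-1-3 at chr3L:3096369-3096440 (plus).
tRNA:Tyr-GTA-1-8: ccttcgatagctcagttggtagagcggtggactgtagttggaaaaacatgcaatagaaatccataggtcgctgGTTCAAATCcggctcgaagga
tRNA:Gln-TTG-2-1: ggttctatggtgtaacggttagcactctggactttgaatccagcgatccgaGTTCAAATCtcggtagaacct
tRNA:Asp-GTC-1-5: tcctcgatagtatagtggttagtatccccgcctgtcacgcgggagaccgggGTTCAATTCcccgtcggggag
tRNA:Val-CAC-2-5: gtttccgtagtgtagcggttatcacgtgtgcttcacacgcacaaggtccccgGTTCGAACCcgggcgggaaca
tRNA:Lys-TTT-1-1: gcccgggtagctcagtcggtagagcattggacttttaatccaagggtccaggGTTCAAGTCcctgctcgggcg
tRNA:Pro-AGG-1-3: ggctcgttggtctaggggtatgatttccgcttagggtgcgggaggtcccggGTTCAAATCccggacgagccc
tRNA:Leu-TAA-2-1: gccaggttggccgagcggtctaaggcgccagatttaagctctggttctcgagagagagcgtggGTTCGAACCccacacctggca
tRNA:Cys-GCA-1-3: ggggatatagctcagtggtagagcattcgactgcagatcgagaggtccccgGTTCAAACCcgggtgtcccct
The tyrosine gene is longer than the others here because it has an intron. The B box match begins at base 74 of that gene, at base 64 of the leucine gene, and at base 52 or 53 of the other 6.

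A summit away from protein-coding starts but close to a tRNA gene is shown for tRNA:Pro-AGG-1-3 and tRNA:Cys-GCA-1-3, since these windows hold both the summit and the whole gene. In both, capitals mark the tRNA gene and the summit is base 21 from the 5′ end. The proline window covers chr2L:14599376-14599556 on the minus strand, and the cysteine window chr3L:3096200-3096460 on the plus strand, both dm6.
Proline window: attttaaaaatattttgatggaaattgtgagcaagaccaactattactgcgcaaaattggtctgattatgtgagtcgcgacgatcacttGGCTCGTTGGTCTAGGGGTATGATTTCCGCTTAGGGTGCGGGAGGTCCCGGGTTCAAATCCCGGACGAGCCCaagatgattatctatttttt
Cysteine window: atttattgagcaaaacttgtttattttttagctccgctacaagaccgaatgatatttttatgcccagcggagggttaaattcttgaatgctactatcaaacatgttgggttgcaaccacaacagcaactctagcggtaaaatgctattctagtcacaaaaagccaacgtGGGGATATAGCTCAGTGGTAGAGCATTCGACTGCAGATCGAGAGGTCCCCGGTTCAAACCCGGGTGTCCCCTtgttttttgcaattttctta
The proline summit lay 69 bp before the gene and the cysteine summit 149 bp before it. For tRNA:Gln-TTG-2-1 and tRNA:Lys-TTT-1-1 the 101 bases centred on the summit, at base 51, lay outside the gene and are chrX:3427706-3427806 (minus strand) and chr2L:8290985-8291085 (plus strand).
Glutamine summit: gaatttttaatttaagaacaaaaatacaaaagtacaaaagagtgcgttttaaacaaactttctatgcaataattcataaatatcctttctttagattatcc
Lysine summit: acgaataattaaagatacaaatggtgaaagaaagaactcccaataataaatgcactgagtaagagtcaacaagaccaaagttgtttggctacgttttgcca

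As a set, tRNA genes had the sequence features of Pol III genes, whether or not a summit was near. The B box core was found in 271 of 290 genes (93.4%), with both strands of the gene searched, against 3.17% of windows of median tRNA length at the starts of the 13945 protein-coding genes. The A box, searched by its usual consensus, was found in 270 (93.1%), against 5.41% of those windows. A TTTT run lay within 50 bases past the end of 289 genes (99.7%), at a median of 9 bases, against 35.6% of windows of that size at protein-coding starts. No A box match overlapped a B box match, and in 251 genes the A box lay before the B box. The B box core was in all 31 genes with an optimal summit within 500 bp. It was in 93.0% of the 115 genes with a pooled relaxed summit and in 93.7% of the 175 without one, so the match did not separate them. Words typical of protein-coding promoters were rarer near tRNA genes than at protein-coding starts. Tiles were not searched for them, so whether they are scarce beside the genome at large is unknown. With 500 bp on either side and both strands searched, 15 tRNA genes (5.17%) had TATCGATA, the core of the DNA replication-related element, and 4 (1.38%) had GGTCACAC, the core of Motif 1. In windows of the same width at protein-coding starts the shares were 12.6% and 11.2%.

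An optimal summit lay within 500 bp of 31 of the 290 tRNA genes, a share of 10.7% with an exact binomial 95% interval from 7.38% to 14.8%. In 1073 bp tiles laid end to end along the 6 arms, which match the median tRNA gene with 500 bp on either side, 6.30% held one. Around the 5′ ends of genes the shares were 17.7% for all annotated genes and 26.5% for protein-coding genes. Counted by gene, tRNA genes thus had an optimal summit more often than tiles and less often than protein-coding genes. The 31 genes shared 22 summits, and with each summit counted once their density was 1.48 times that of the arms. No interval is given for that ratio. With replicate 1 left out, by keeping the optimal summits found within the 8551 strongest of both others, the share fell to 6.90% of tRNA genes and 4.68% of tiles. That tRNA share is 20 genes, and no interval is given for it. A pooled relaxed summit lay within 500 bp of 115 tRNA genes, 39.7% (34.0% to 45.5%), against 19.1% of tiles. Intervals here cover counting error only, and neighbouring genes that share a summit are not independent, which makes them too narrow. Counted by cluster, an optimal summit lay near 21 of 174 clusters (12.1%) and a relaxed one near 74 (42.5%), where a cluster joins tRNA genes up to 1000 bp apart and a lone gene counts as one. Without replicate 1 an optimal summit was near 7.47% of clusters. Clusters span up to 2513 bp before the 500 bp on either side, so the tiles do not match them. The cluster shares therefore have no background here and do not show an excess.

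Each replicate list was limited to its 8551 strongest summits, the length of the optimal list. Within this limit, a summit lay within 500 bp of 34 tRNA genes in replicate 1 (11.7%), 32 in replicate 2 (11.0%) and 29 in replicate 3 (10%), or 10.9% ± 0.868 (SD, n = 3). The shares of tiles were 6.30%, 6.29% and 6.27%, and the ratio of tRNA genes to tiles was 1.74 ± 0.134. Over all 30000 summits, 118, 127 and 118 tRNA genes had one (40.7%, 43.8% and 40.7%), against 19.4%, 19.1% and 19.5% of tiles, a ratio of 2.16 ± 0.117. In every replicate and at both limits the tRNA share was above the tile share, by more than the spread between replicates. The 3 lists were scored on the same tRNA genes, so this spread does not measure counting error over genes. Within the rank limit, exact binomial 95% intervals began at 8.26%, 7.67% and 6.80% in replicates 1, 2 and 3. They are too narrow, because neighbouring genes share summits. Whether the excess within the limit exceeds counting error was therefore not tested. No control list was used here, so a preference of the assay for these regions was not tested.

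The overlap between replicates at tRNA genes was close to that of tiles. A listed summit was within 500 bp in all 3 replicate lists for 69 tRNA genes (23.8%) and in none for 116, and 12.1% of tiles had one in all 3. Of the features listed in at least 1 replicate, 39.7% of tRNA genes and 43.3% of tiles were listed in all 3. Within the rank limit, 22 genes had a summit in all 3 replicates and 41 in at least 1, or 53.7%, beside 54.2% for tiles. Of the 31 genes with an optimal summit, 22 were within the limit in all 3 replicates. Of the 115 with a pooled relaxed summit, 65 had a listed summit in all 3. Over clusters listed in both replicates of a pair, Spearman's rho of the best rank was 0.717 for replicates 1 and 2 (63 clusters), 0.798 for 1 and 3 (57) and 0.776 for 2 and 3 (56). Clusters are not independent replicates, and per the deposited listing the replicate lists share an input file besides their own alignments.

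Most tRNA genes were away from protein-coding starts. The median distance from a tRNA gene to the nearest protein-coding transcript start was 2858.5 bp, the range 0 to 52599 bp, and 210 genes were over 1000 bp away. At these 210 genes, 17 had an optimal summit within 500 bp (8.10%, 4.79% to 12.6%), against 3.89% of tiles at such distances. It was 5.24% (11 genes, no interval given) without replicate 1 and without replicate 2 alike, against 2.84% and 2.72% of tiles. A relaxed summit was near 79 of them (37.6%, 31.05% to 44.5%), against 15.7% of tiles. Near a protein-coding start the shares were higher for tRNA genes and tiles alike. Within 500 bp of a start, 10 of 33 tRNA genes (30.3%, 15.6% to 48.7%) had an optimal summit, and 21.6% of tiles did. Between 1000 and 2000 bp only 1 of 45 tRNA genes had one (2.22%), below the 5.52% of tiles. Beyond 5000 bp it was 11 of 110 (10%, 5.10% to 17.2%) against 3.21% of tiles. The interval for tRNA genes lay above the tile value only in that last bin for optimal summits, and in the 4 bins beyond 500 bp for relaxed summits. These intervals treat genes as independent and are too narrow where genes share a summit. Of the 11 genes in the last bin, 4 in Cht7 shared 1 optimal summit and 3 proline genes in 1 cluster shared 2. Whether that bin differs from tiles was therefore not tested.

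**Figure D1:**
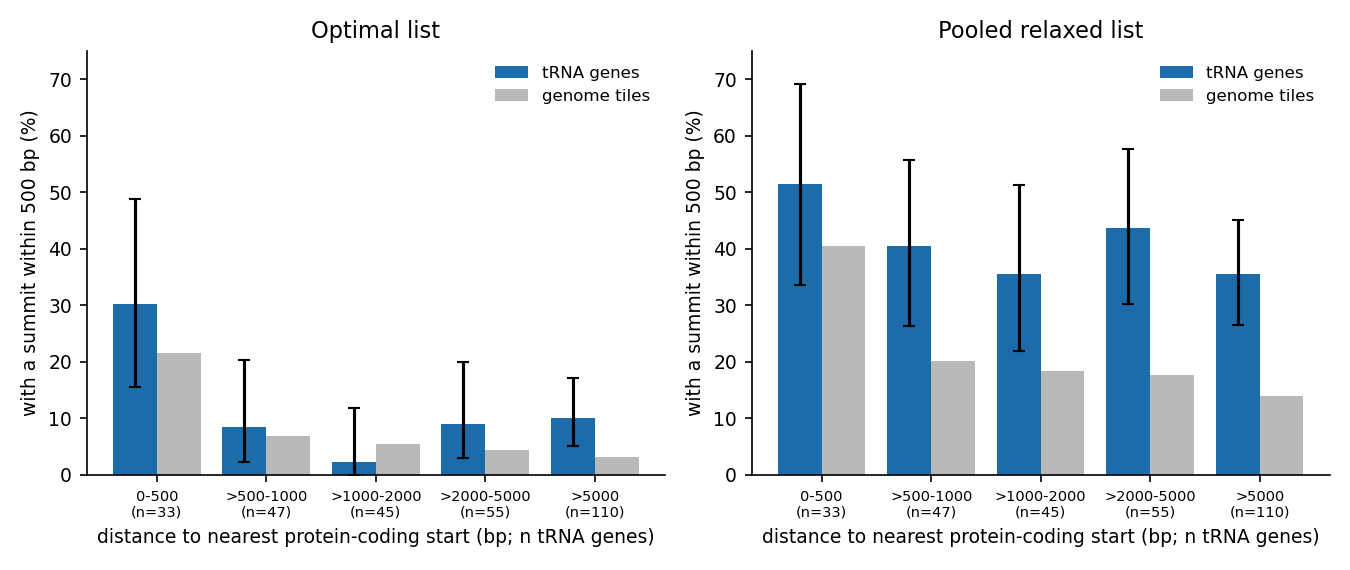
Share of tRNA genes (blue) and of genome tiles of the same width (grey) with a summit within 500 bp (%), by distance to the nearest protein-coding start (bp), in the optimal list (left) and the pooled relaxed list (right). Bars on the tRNA shares are exact 95% binomial intervals; beyond 5000 bp 10% of tRNA genes and 3.21% of tiles had an optimal summit.

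The wider neighbourhood of tRNA genes also held more summits than the genome at large. Summit density was taken in zones by distance to the nearest tRNA gene and divided by the density over the 6 arms. In the replicate lists the ratio was 1.99 ± 0.422 from 1 to 100 bp, 2.26 ± 0.223 from 100 to 250 bp and 1.42 ± 0.255 from 250 to 500 bp (SD, n = 3). Further out it was 1.71 ± 0.0271 from 500 to 1000 bp, 1.48 ± 0.171 from 1000 to 2000 bp and 1.498 ± 0.104 from 2000 to 5000 bp. The ratio was above 1 in every zone and every replicate, so the excess was not limited to the 500 bp window. Restricted to bases over 1000 bp from a protein-coding start, and compared with such bases of the arms, the ratio was 2.67 ± 0.367 within 100 bp. It was 2.38 ± 0.327 from 100 to 250 bp, 1.71 ± 0.442 from 250 to 500 bp and 2.07 ± 0.0925 from 500 to 1000 bp. From 1000 to 2000 bp it was 1.67 ± 0.289, and between 2000 and 5000 bp 1.72 ± 0.153. The ratio thus did not fall evenly with distance. Replicate values within 100 bp (3.05, 2.32 and 2.63) were all above those at 2000 to 5000 bp (1.56, 1.87 and 1.74). Those within 100 bp rest on 22, 17 and 19 relaxed summits, and the spread between replicates does not measure counting error. In the optimal list the ratio over these bases was 1.87 within 100 bp, from 3 summits. It was 2.98 from 500 to 1000 bp, from 14 summits, and 1.501 from 2000 to 5000 bp. Whether the ratio falls with distance was therefore not tested.

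The tRNA genes themselves held relaxed summits but no optimal one. Their 22.026 kb held 11, 21 and 14 summits in replicates 1, 2 and 3, ratios of 2.23, 4.25 and 2.84 to the arms (3.11 ± 1.04), and 17 pooled summits (3.44). The optimal list had 0 summits inside, where its density over the arms would place 1.41. A count of 0 allows up to 3, so no shortage of optimal summits inside tRNA genes can be read from it. The 17 pooled summits had ranks from 11602 to 24408, and 13 lay in genes over 1000 bp from a protein-coding start. In the replicate lists a few summits inside were within the rank limit. They ranked 5400 in tRNA:Ser-CGA-1-4 (replicate 3), 6952 in tRNA:Glu-CTC-2-3 (replicate 1), 8426 in tRNA:Ser-AGA-2-4 (replicate 1) and 8520 in tRNA:Cys-GCA-1-3 (replicate 2). No gene had such a summit in more than 1 replicate, and all other replicate summits inside ranked beyond the limit. A summit lay inside 37 genes in at least 1 replicate, inside 8 in at least 2, and inside 1 gene in all 3. That gene was tRNA:Arg-TCG-2-1 on X at chrX:14014814-14014886, 14604 bp from a protein-coding start, with ranks of 22482, 11109 and 24382. These genes are hard to map. Of the 17 with a pooled summit inside, 16 had no 31-base word found only once in the genome, and whether reads from other copies add to such summits was not tested.

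**Figure D2:**
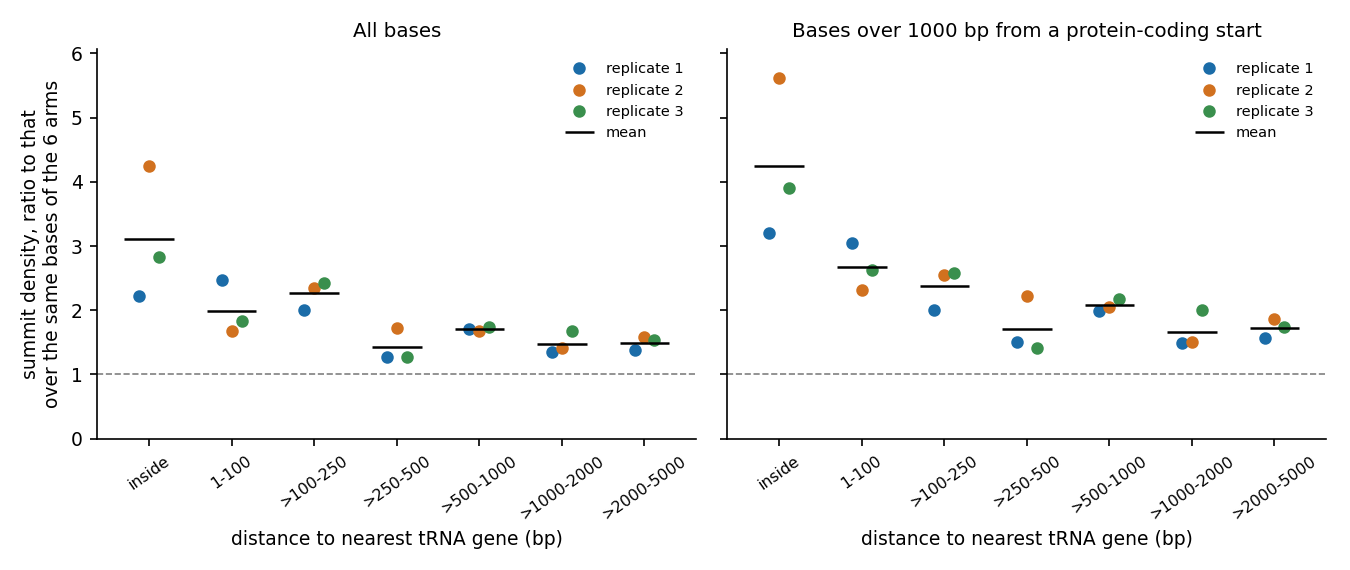
Summit density by distance to the nearest tRNA gene (bp), as a ratio to the density over the same bases of the 6 arms, over all bases (left) and over bases more than 1000 bp from a protein-coding start (right). Points are the 3 replicate lists and lines their means; the dashed line is 1, and over all bases the mean inside the gene is 3.11 against 1.498 at 2000 to 5000 bp.

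Repeated sequence bears on all of these values. The 290 genes had 95 distinct sequences, 238 had at least 1 identical copy, and the largest set had 13. Of the bases around them most could be mapped: the share of 31-base words found once in the genome had a median of 92.3% over tRNA windows, against 100% over tiles, and a lowest value of 27.5%. In the 212 windows with at least 90% unique words, 26 genes had an optimal summit (12.3%, 8.17% to 17.5%), against 7.49% of such tiles, and 92 had a relaxed one (43.4%, 36.6% to 50.4%), against 22.6%. In the other 78 windows the counts were 5 and 23. In these well-mapped windows the tRNA shares were thus above the tile shares too. The filter covers the whole window, and 238 of the 290 genes had no unique word inside the gene itself. The intervals are too narrow where genes share a summit, and whether mapping bears on the excess was not tested. Windows of tRNA genes had a median A or T share of 61.6%, against 58.2% for tiles, and it was 61.2% with and 62.1% without a relaxed summit.

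Other short noncoding genes away from protein-coding starts were set beside tRNA genes, with distance measured to the gene body in every class. Within the rank limit, 8.57% ± 0.476 of the 210 tRNA genes had a replicate summit within 500 bp (SD, n = 3). The share was 4.63% ± 0.321 of 180 snoRNA genes, which encode guides for RNA modification, and 4.64% ± 0.515 of 194 microRNA precursor genes, with 3.77% ± 0.0695 of tiles. Over all listed summits it was 40.3% ± 1.80 of tRNA genes, 12.8% ± 2.42 of snoRNA genes, 16.0% ± 2.73 of microRNA precursor genes and 15.4% ± 0.102 of tiles. Over these far genes the 3 values for tRNA genes were, at both limits, all above those for snoRNA genes, microRNA precursors and tiles, and this was also so with distance measured to the 5′ end. With genes near protein-coding starts included, snoRNA genes and tRNA genes did not separate within the rank limit. Replicates 1, 2 and 3 then gave 10.04%, 10.04% and 12.6% for snoRNA genes, beside 11.7%, 11.0% and 10% for tRNA genes. Over all summits the means with those genes included were 19.8% ± 2.81 and 41.7% ± 1.79. The classes come from the same 3 libraries, and the difference was not tested beyond this spread. snRNA genes, which encode the RNAs of the spliceosome, were higher within the rank limit, 20.5% ± 2.22 of 26 genes, and close to tRNA genes over all summits, 37.2% ± 8.01. Genes for ribosomal RNA were not counted in the replicates. Of 99 such genes over 1000 bp from a protein-coding start, 0 had an optimal or pooled relaxed summit. Their median share of unique words was 0%.

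**Figure D3:**
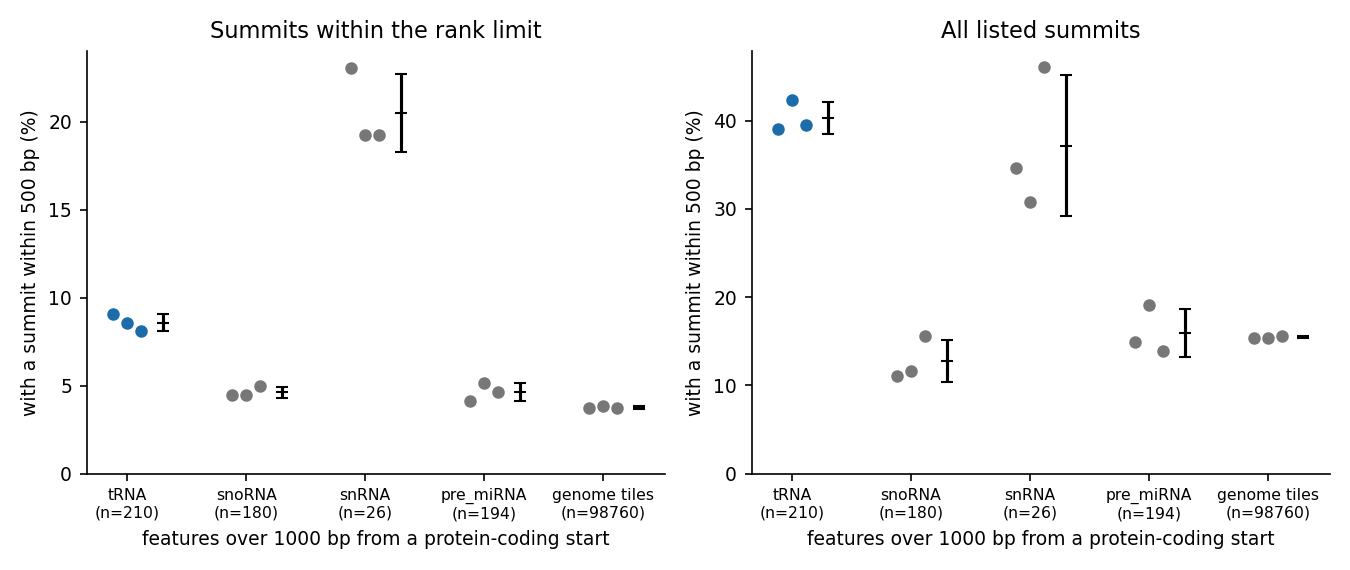
Share of genes over 1000 bp from a protein-coding start with a replicate summit within 500 bp (%), within the rank limit of 8551 (left) and over all 30000 summits (right), for 4 classes of short noncoding genes and genome tiles. Points are the 3 replicates and bars the mean with its SD; tRNA genes are at 40.3% over all summits, with tiles at 15.4%.

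The 31 genes with an optimal summit shared 22 distinct summits, since neighbours within 500 bp of the same summit each count. No tRNA gene had more than 1 optimal summit. Of the 22, 13 lay upstream of the nearest tRNA gene and 9 downstream. Their median distance to it was 221.5 bp, and 4 were within 100 bp. Their median signal was 257, beside 225 for the whole list, which runs from 123 to 5263, and none was among the 20 strongest. Of the 22 summits, 9 were within 500 bp of a protein-coding start and 11 over 1000 bp from one. A summit near both cannot be assigned to either gene. In the replicates, 14 of the 22 were within the rank limit in all 3, 5 in 2 and 3 in 1, taking the replicate summit within 100 bp. Of all optimal summits, 64.8% were within it in all 3.

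The strongest summits near tRNA genes were mostly at protein-coding promoters. The strongest, at chr3R:8669394 (signal 1360, rank 157), lay 220 bp upstream of the tyrosine gene tRNA:Tyr-GTA-1-8 and 224 bp from the start of CG8036, and its replicate ranks were 193, 132 and 194. On X, the summit 210 bp downstream of the phenylalanine gene tRNA:Phe-GAA-1-2 (signal 738; ranks 488, 767 and 762) was 23 bp from the start of RpL17, a ribosomal protein gene. The histidine gene tRNA:His-GTG-1-3 on 2R had a summit 179 bp upstream (signal 638; ranks 970, 849 and 794), 71 bp from the start of CG8490. For each of these 3 summits the worst replicate rank was at most 1.57 times the best.

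Further summits of this kind had lower signal. The aspartate gene tRNA:Asp-GTC-1-5 on 2L and its neighbour tRNA:Asp-GTC-1-4 shared a summit (signal 507; ranks 852, 1819 and 1433) 123 bp from the start of Sema1a, which encodes an axon guidance protein. The summit by the valine gene tRNA:Val-CAC-2-5 (signal 473; ranks 1172, 2079 and 1056) was 443 bp from the start of Naam, a nicotinamidase gene. A tryptophan gene, tRNA:Trp-CCA-2-2, and the glycine gene tRNA:Gly-GCC-1-9 shared a summit (signal 446; ranks 1901, 1349 and 2041) 28 bp from the start of CG30122. The leucine gene tRNA:Leu-TAA-2-1 had a summit 257 bp upstream (signal 260), 318 bp from the start of CG13605. Its ranks of 2902 and 3439 in replicates 1 and 2 fell to 10285 in replicate 3, beyond the rank limit.

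Away from protein-coding starts the strongest summit was at the glutamine gene tRNA:Gln-TTG-2-1 on X. It lay 233 bp upstream (signal 826, rank 535), 8051 bp from the nearest protein-coding start and inside CG12535, with ranks of 363, 470 and 736. The lysine gene tRNA:Lys-TTT-1-1 on 2L had one 236 bp downstream (signal 472; ranks 1824, 1124 and 1755), 6089 bp from the nearest start and inside Btk, which encodes a Tec family tyrosine kinase. Both genes have no identical copy, and over 97% of the words in their windows are unique (97.2% and 97.3%). All 3 replicates placed both summits within the rank limit.

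A group of proline genes on 2L, in and beside osp, carried 2 optimal summits. tRNA:Pro-AGG-1-3 had one 69 bp upstream of it, at chr2L:14599536 (signal 344; ranks 2430, 3060 and 1439), which tRNA:Pro-AGG-1-4 shared. tRNA:Pro-AGG-1-2, identical in sequence to tRNA:Pro-AGG-1-3, had one 354 bp upstream, at chr2L:14598505 (signal 191; ranks 6392, 5316 and 3941). The summits lay 11302 and 10271 bp from the nearest protein-coding start. All replicate ranks were within the limit.

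Other summits at tRNA genes far from protein-coding starts had lower signal. On 2R, glutamate gene tRNA:Glu-TTC-1-5 had a summit 92 bp downstream (signal 298) with ranks of 2636, 2467 and 5825. The summit by the arginine gene tRNA:Arg-CCT-1-3 on 2R (signal 254) ranked 4088 and 3589 in replicates 1 and 2. It had no replicate 3 summit within 100 bp, but replicate 3 had one of rank 4283 within 500 bp of the gene. The alanine gene tRNA:Ala-TGC-2-1 on 2R (signal 221) had ranks of 4629, 5639 and 3679. A summit 59 bp downstream of tRNA:Glu-CTC-1-1 in mrj (signal 187), which 3 glutamate genes shared, ranked 8274, 4283 and 13380. tRNA:Glu-CTC-2-3 on 3L (signal 146) had ranks of 20354, 9213 and 7760 within 100 bp of its summit. Replicate 1 also had a stronger summit inside that gene, of rank 6952, so its spread depends on the 100 bp match. By that match the worst rank was 3.12 and 2.62 times the best at these 2 summits. This was the widest spread after tRNA:Leu-TAA-2-1 (3.54) among the summits with all 3 ranks.

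**Figure D4:**
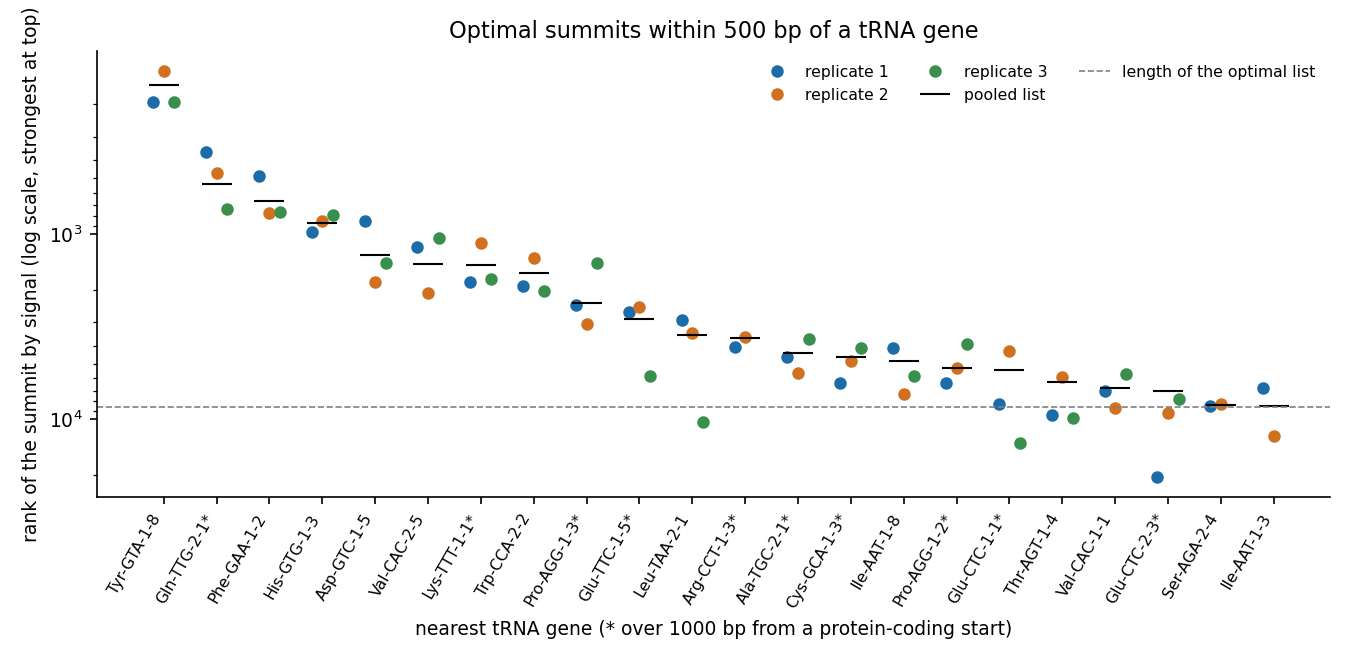
Ranks by signal (log scale, strongest at the top) of the 22 optimal summits within 500 bp of a tRNA gene, named by the nearest gene, with an asterisk where the gene is over 1000 bp from a protein-coding start. Points are the replicate summits within 100 bp (none was found in replicate 3 for 3 summits), black bars the pooled list and the dashed line the rank of 8551; the 3 ranks at tRNA:Tyr-GTA-1-8 lie between 132 and 194, and those at tRNA:Leu-TAA-2-1 between 2902 and 10285.

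Below the optimal threshold, 84 tRNA genes had a pooled relaxed summit alone, with ranks from 8600 and a median of 17949.5. All 100 distinct pooled summits near tRNA genes had a median rank of 16823.5. Of these, 22% were optimal (14.3% to 31.4%), beside 28.5% of the whole list. A summit within 100 bp was found in all 3 replicate lists for 30.0% (21.2% to 40.0%), beside 41.8% of the whole list, which lies above that interval. Relaxed summits were denser near tRNA genes, at 429 per Mb of tRNA windows against 224 per Mb of the arms. For optimal summits the densities were 94.3 and 63.9 per Mb, a ratio of 1.48 that rests on 22 summits in the tRNA windows.

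The pooled list did not hold every locus that the replicates did. In 4 tRNA genes with no pooled summit within 500 bp, each of the 3 replicate lists had one. One of them is the initiator gene tRNA:iMet-CAT-1-4, with ranks of 17019, 17591 and 13071. Another 5 genes had no pooled summit but a replicate summit within the rank limit. Among them, chosen after its values were seen, tRNA:Gly-GCC-1-13 on 2R ranked 3139 in replicate 1 and 8242 in replicate 3 and was not listed in replicate 2. Over whole lists, 330, 140 and 329 summits within the rank limit of replicates 1, 2 and 3 had no pooled summit within 500 bp, so such loci were not limited to tRNA genes.

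tRNA genes grouped into 105 that stood alone, 43 pairs and 26 clusters of 3 to 7 genes. An optimal summit was near 9 of 105 lone genes (8.57%, 3.99% to 15.6%), 8 of 86 paired genes (9.30%, 4.10% to 17.5%) and 14 of 99 genes in larger clusters (14.1%, 7.95% to 22.6%). The intervals overlap widely. Of the 5 largest clusters, 2 had an optimal summit. The 7 isoleucine and leucine genes within ATP8A, a phospholipid flippase gene on 2R, had 1 optimal summit near the bottom of the list (rank 8431), 123 bp from an ATP8A start. Another 7 genes, for arginine and serine, lay together on X and had no optimal summit and 1 pooled relaxed summit (rank 13653), with a median of 66.1% unique words over the 7 windows.

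Of the 6 genes for cysteine and lysine within Cht7, a chitinase gene on 3L, 4 had the same optimal summit within 500 bp. Its signal was 213, its ranks 6403, 4820 and 4146, and it lay 10738 bp from a protein-coding start. By contrast, 6 asparagine and arginine genes on 3R had no pooled summit and 1 weak replicate entry (rank 26704 in replicate 2). The 5 arginine, asparagine and lysine genes in EcR, the ecdysone receptor gene on 2R, also had none in the pooled list and 1 replicate entry, rank 25817 in replicate 2. The median share of unique words over the members' windows was 83.4% and 81.8% in these last clusters and 86.9% in the Cht7 cluster.

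Counts inside and outside protein-coding genes did not differ beyond their intervals. An optimal summit was near 16 of 134 tRNA genes inside a protein-coding gene (11.9%, 6.98% to 18.7%) and 15 of 156 outside (9.62%, 5.48% to 15.4%). Among genes over 1000 bp from a protein-coding start it was 11 of 97 inside (11.3%) and 6 of 113 outside (5.31%), with overlapping intervals. For relaxed summits the counts were 35 of 97 (36.1%) and 44 of 113 (38.9%), in the other order. Of the 16 tRNA genes with an intron, 1 had an optimal and 7 a relaxed summit.

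By amino acid, optimal summits were near genes of 18 of 22 kinds, where initiator methionine and selenocysteine count as kinds of their own. Glutamate had most, 5 of 19 genes, followed by 3 of 7 for cysteine and 3 of 17 for proline. The 5 glutamate genes shared 3 summits and the 3 cysteine genes 1, so these counts rest on few loci. Asparagine (10 genes), elongator methionine (6), initiator methionine (6) and selenocysteine (1) had none. For relaxed summits leucine had 13 of 22 genes and glutamate 11 of 19, while glycine had 2 of 20 and serine 4 of 20. The members of a kind are often copies of one sequence, and the difference between kinds was not tested.

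**Figure D5:**
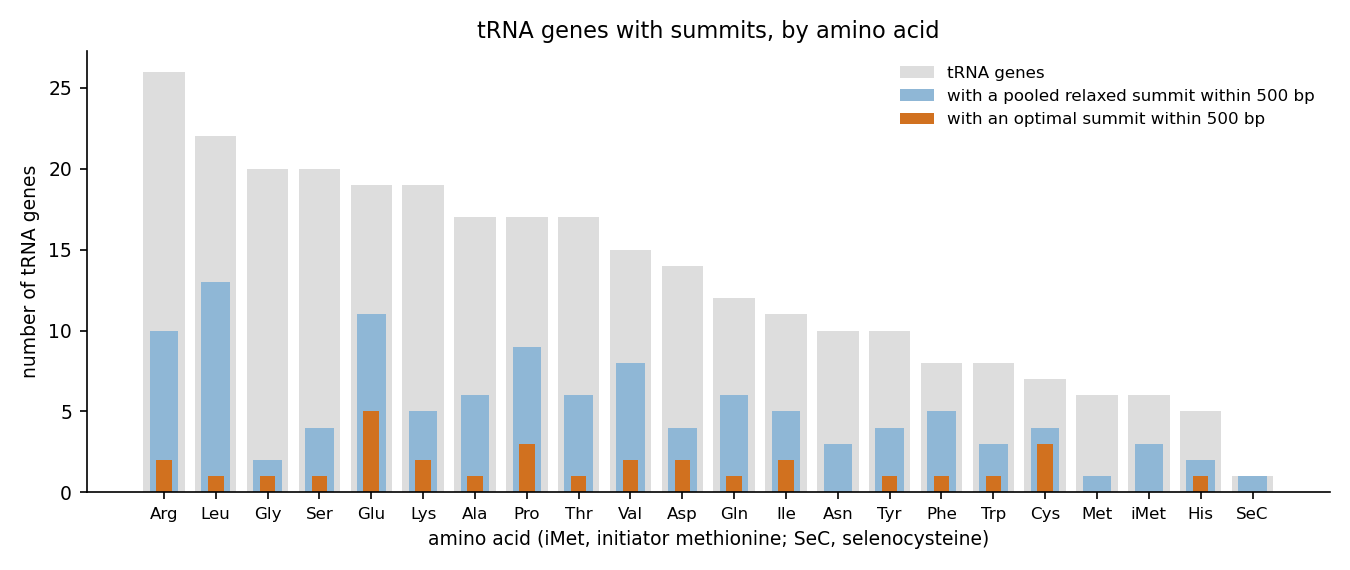
Number of tRNA genes for each amino acid (grey), of those with a pooled relaxed summit within 500 bp (blue) and of those with an optimal summit within 500 bp (orange). Leucine has 13 of 22 genes with a relaxed summit and glycine 2 of 20; glutamate has 5 genes with an optimal summit.

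Initiator methionine tRNA, which starts translation, and selenocysteine tRNA, which reads a stop codon as selenocysteine, had weak entries only. Of the 6 initiator genes, 3 had a pooled relaxed summit. tRNA:iMet-CAT-1-3 on 3L had rank 15385, with replicate ranks of 19117, 15239 and 21291. tRNA:iMet-CAT-1-1 and tRNA:iMet-CAT-1-2 on 2R shared rank 26401, with an entry in replicate 1 alone (28983). tRNA:iMet-CAT-1-5 was listed in replicates 1 and 2 (17019 and 17591) by the summits it shares with tRNA:iMet-CAT-1-4, and tRNA:iMet-CAT-2-1 in none. The selenocysteine gene tRNA:SeC-TCA-1-1 on 2R had pooled rank 21242 and replicate ranks of 20639, 15735 and 27716. It is a single-copy gene in which every word is unique, and all its ranks lay far below the optimal threshold.

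The protein-coding genes of the Pol III system were also examined, using a list of Pol III subunits, its transcription factors and the enzymes of tRNA maturation. Of 52 genes matched by symbol, 22 (42.3%) had an optimal summit within 500 bp of a transcript start, against 29.0% of all protein-coding genes. A relaxed one was near 27, a count with no share of all protein-coding genes beside it. No interval is given for the 42.3%, so whether it exceeds counting error was not tested. Among the 10 Pol III subunits matched, 4 had an optimal summit, led by Polr3E (signal 564; ranks 1196, 1168 and 862). The list took in Pop2, a deadenylase gene with no established part in this system, and it had an optimal summit. The count fell to 14 (26.9%) when only summits found within the rank limit of replicates 2 and 3 were kept, and the share of all protein-coding genes fell to 22.9%.

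The strongest of these promoters was that of Tcs5, a homologue of a kinase of the complex that makes a universal tRNA modification (signal 3526; ranks 9, 9 and 13). Its summit lay 108 bp from a start. CG7099 followed with a signal of 1272 and ranks of 144, 211 and 308. The TFIIIB subunit genes Bdp1 (signal 1182; ranks 282, 216 and 224) and Brf (signal 1112; ranks 191, 340 and 379) each had 2 optimal promoter summits. In the pooled list they ranked 224 and 259. Tbp, which encodes the TATA-binding protein, had a relaxed summit alone (rank 13949), and Trf, its relative that takes its place in fly TFIIIB, had none in any list. Maf1, which encodes a repressor of Pol III, had no pooled summit and 1 weak entry in replicate 1 (rank 23357). Pbp45, which encodes a subunit of the complex that activates snRNA genes, had ranks of 2798, 4523 and 3064 in the replicates but no pooled summit, and was chosen after its values were seen.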

How the data were processed

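The authors deposited peak lists on dm6 and dm3, and the 5 dm6 lists were used: the optimal list, the pooled relaxed list and the 3 replicate relaxed lists. Per the deposited listing, each relaxed list was called on its alignments with 1 further input file, and the optimal list came from the relaxed lists by their irreproducible discovery rate. Aligner, caller and threshold were not given in the sources used here. The deposited signal is the authors' value per peak, with no stated scaling between lists, so it served for ranks inside one list. Coordinates are dm6 and 1-based.

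A summit was counted at a tRNA gene when it lay within 500 bp of the gene body. A gene was far from protein-coding starts when over 1000 bp from every protein-coding transcript start. Uniqueness was the share of 31-base words found once in the genome on either strand. With 1 group and no control list there was no contrast to test, so results are counts, exact binomial 95% intervals and replicate means with SD (n = 3). The labels call the replicates biological, and the lists give no depth. Alternatives were other distances, the 5′ end in place of the gene body, higher-signal peaks, other rank limits, other cluster gaps, well-mapped windows and the omission of each replicate. To omit one, optimal summits were kept if they had a summit within 100 bp among the 8551 strongest of both others.

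The members, lists and alternatives were chosen with earlier results of these data known. Named genes were those nearest the 12 strongest optimal summits, those nearest the 10 strongest among far tRNA genes, the 5 largest clusters, initiator and selenocysteine genes, the 3 optimal genes whose replicate ranks differed most, and 5 Pol III system genes with the highest promoter signal plus Brf, Trf, Tbp, Bdp1 and Maf1. Of the Pol III system symbols, 9 matched no gene. The functions were tested on simulated lists. Python 3.11.15, numpy 2.4.6, pandas 2.3.3, scipy 1.17.1 and matplotlib 3.10.9 were used.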

Additional observations from a re-analysis of the deposited data

How the results depend on the processing

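The distance counted as near set the size of every share. With 250 bp in place of 500 bp, the share of tRNA genes with an optimal summit was 5.86%, that with a relaxed summit 26.9% and the replicate mean 6.55%. With 1000 bp these were 20%, 56.2% and 20%, and optimal summits were near 18.1% of far tRNA genes and 21.3% of clusters. Tiles of those widths were not counted, so these shares do not show whether an excess persists at other distances. With the 4275 optimal peaks of higher signal, the shares were 5.52% of all tRNA genes, 3.33% of far ones and 6.90% of clusters. The tile shares for these peaks were 3.26% of all tiles and 1.83% of far ones. With the rank limit at 4275, at 2 times the length of the optimal list and absent, the replicate mean was 5.98%, 23.7% and 41.7%. The tile mean with no limit was 19.3%, and tiles were not counted at the other 2 limits. Leaving out each replicate in turn (6138, 5919 and 6467 optimal summits left) gave 6.90% to 9.31% of tRNA genes, 5.24% to 7.62% of far ones, 7.47% to 9.77% of clusters and 14 to 18 Pol III system genes, and the replicate mean was 10.5% to 11.4%. The fewer summits are part of the construction of these sets. In each of these sets the tRNA share was above that of tiles, which was 4.52% to 4.92%. Without replicates 1, 2 and 3 the tRNA shares rest on 20, 21 and 27 genes, some of which share summits. No intervals are given for these sets, so whether the difference exceeds counting error was not tested. The share measured from the 5′ end, in well-mapped windows or with other cluster gaps moved by less than its interval. No paired analysis was possible because there is 1 group. The lists hold no counts, so what depth limits could not be measured, and a tRNA gene with no listed summit is not shown to be unbound.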
